A study of Homo sapiens with 27 samples.

Results

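Benzo[a]pyrene (BaP) and chrysene (CHR) are polycyclic aromatic hydrocarbons, and chrysene has fewer fused rings. They were the 2 compounds of the series with the strongest shared response of p53 target genes, and their difference is described here across all genes. It rests on 6 of the 27 arrays of the series, 3 per compound, and on 16652 genes tested of 17296 named on the platform. The cells were HepG2, a line from a human liver tumour with much hepatocyte character, exposed for 48 h. On each array, treated cells gave the Cy5 sample and cells with DMSO, the solvent, the Cy3 sample. A value is the log2 ratio of the treated channel over the DMSO channel, and the difference is the mean ratio of the 3 BaP arrays minus that of the 3 CHR arrays. The labels give no doses, so a difference may be one of dose as well as of compound. Nothing says that the arrays of a compound came from separate cultures, so p-values measure the spread between arrays, which may be technical. The dyes were never exchanged.

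Both compounds bind the aryl hydrocarbon receptor (AHR), which induces cytochromes P450 of family 1 and other enzymes that oxidise and conjugate them. Some oxidised products, diol epoxides of benzo[a]pyrene above all, bind DNA, and the damage activates the transcription factor p53. Among the targets of p53 is CDKN1A (p21), an inhibitor of cyclin-dependent kinases through which genes of G2 and mitosis are repressed by the DREAM complex. That complex binds many of their promoters at the sequence TTTGAA, the core of the cell cycle genes homology region.

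The array sets of the compounds differed in more than the compound. Median Cy5 signals were 500 to 546 intensity units on the BaP arrays and 696 to 944 on the CHR arrays, and median Cy3 signals were 518 to 575 and 961 to 1316. Across genes, ratios correlated at 0.968 to 0.97 among BaP arrays, at 0.917 to 0.978 among CHR arrays, where array 1 stood apart, and at 0.632 to 0.751 between the sets. Genes are not independent replicates. Compared directly after scaling the channels, the DMSO channel differed between the sets in 6219 genes (37.3% of those tested), 3093 higher and 3126 lower on the BaP arrays, at an adjusted p under 0.05 by limma and at least 1.5-fold. With each channel only centred on its median, 8421 genes were higher and 2173 lower, and the median difference of all genes moved from 0.12 to 0.61. Treated channels differed in 4976 genes (29.9%), 2496 higher and 2480 lower. Centring gave 5156 and 2065 there and moved the median from 0.07 to 0.35. Compound, array set and DMSO RNA cannot be told apart, so channel differences are given beside most results, treated first. Of 8 hepatocyte markers, all were measured, and ALB, SERPINA1 and TF were saturated on all 6 arrays. The hepatocyte list gave a median difference of -0.40 between the compounds, with 3 lower and 0 higher with benzo[a]pyrene. Leukocyte, fibroblast and endothelial lists gave medians of -0.65, 0.07 and -0.09, with 3 of 6 lower, 1 of 5 higher and 0 of 5 called. The shares called were 37.5%, 50%, 20% and 0%, against 21.8% of all genes. The part of these lists in the results was not tested.

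Of the genes tested, 3630 (21.8%) differed between the compounds, 2432 (14.6%) higher and 1198 (7.19%) lower with benzo[a]pyrene, by limma's moderated test with Benjamini-Hochberg adjustment under 0.05 and at least 1.5-fold. The 3 ratios of one compound lay wholly above or below those of the other for 63.5% of all genes. The rule that named most genes below required this, so a lack of overlap in them describes the values and is no added support. Against DMSO, 4339 genes (26.1%) passed with benzo[a]pyrene, 2619 up (15.7%) and 1720 down (10.3%). Median centring in place of loess turned these into 3570 and 1309. With chrysene 4163 (25%) passed, 2008 up (12.1%) and 2155 down (12.9%). Of the 1265 genes that rose with both compounds, 199 were higher and 112 lower with benzo[a]pyrene, and of the 984 that fell with both, 72 were higher and 212 lower. The other differences were in genes that passed against DMSO with 1 compound or with neither, apart from 58 that rose with benzo[a]pyrene and fell with chrysene and 8 that did the opposite. Genes that passed with benzo[a]pyrene alone gave 824 higher and 334 lower, with chrysene alone 734 higher and 298 lower, and with neither 545 higher and 234 lower.

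**Figure D1:**
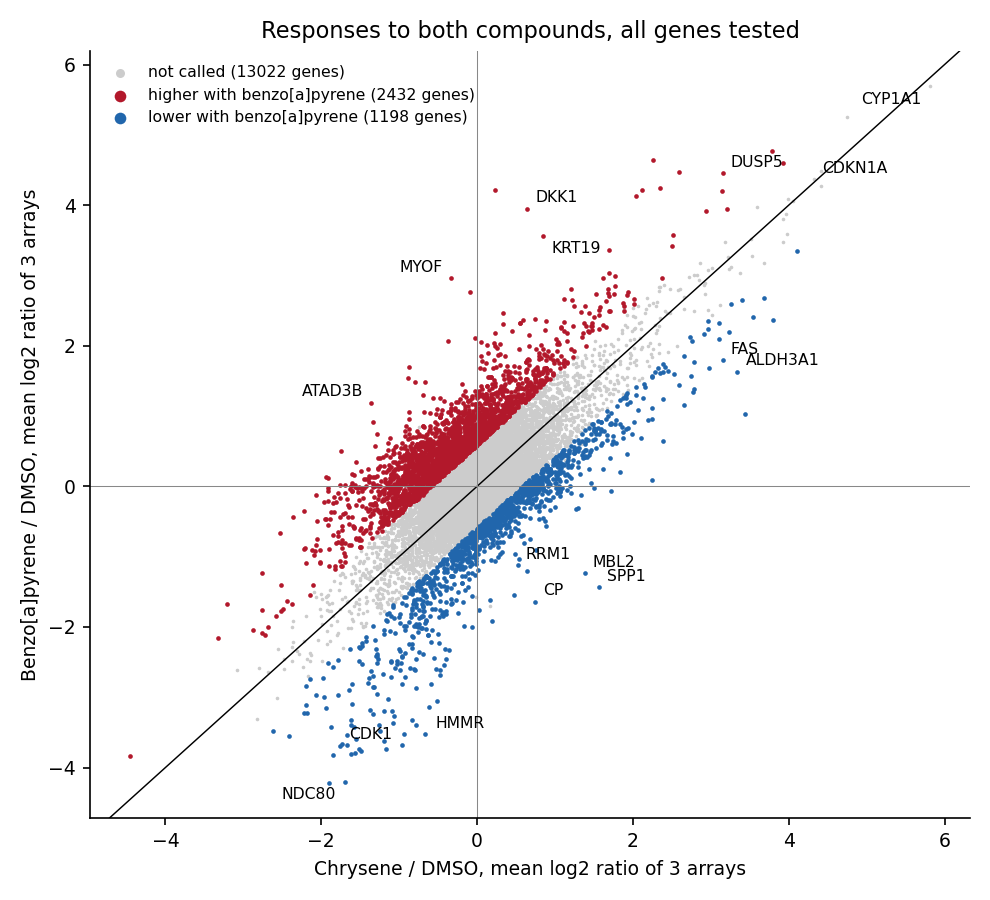
Mean log2 ratio to DMSO with chrysene (horizontal) and benzo[a]pyrene (vertical) for the 16652 genes tested, with 3 arrays each. Genes higher with benzo[a]pyrene are red (2432), genes lower are blue (1198), and the line marks equal ratios. The mitotic genes HMMR, CDK1 and NDC80 lie far below the line at the lower left and DKK1 and KRT19 far above it, while CYP1A1 and CDKN1A, both saturated on some arrays, lie near it.

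These differences were split between the channels in several ways. Of the 3630 genes, 919 had a treated channel at least 1.5-fold apart the same way as their ratio, 650 of them higher and 269 lower with benzo[a]pyrene. In 1226 genes the DMSO channel alone was 1.5-fold apart, in 687 the treated channel alone, in 1035 both the same way, in 99 both in opposite ways, and in 583 neither. Among the 2432 higher genes, 894 had a treated channel at least 1.5-fold lower on the BaP arrays, beside a DMSO channel that was lower still. Among the 1198 lower genes, 8 showed the reverse.

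**Figure D2:**
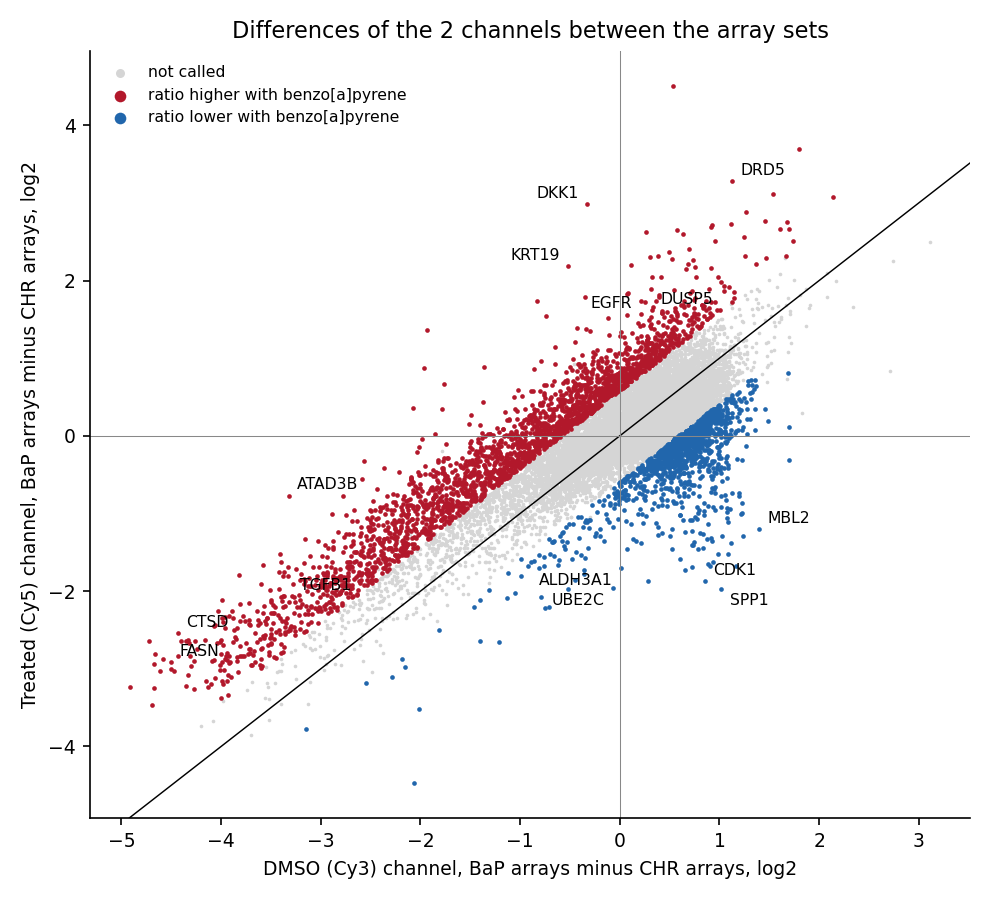
Difference between BaP and CHR arrays in the DMSO channel (horizontal) and in the treated channel (vertical), log2, for all genes tested. The distance from the diagonal is the difference of the ratios. DKK1, KRT19, ALDH3A1 and UBE2C differ mainly in the treated channel, UBE2C with a DMSO SE of 0.434. ATAD3B, FASN and CTSD lie far to the left, with both channels lower on the BaP than on the CHR arrays.

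The clearest group was that of genes of G2 and mitosis, which fell with both compounds and further with benzo[a]pyrene. All 30 members measured fell with benzo[a]pyrene and 28 fell with chrysene, where 10.3% and 12.9% of all genes fell. Their median ratios were -3.21 and -1.15, falls to about 1 part in 9.25 and 1 in 2.22. Between the compounds 29 of the 30 were lower with benzo[a]pyrene and the other, CDC20, had a difference of -0.31 (95% interval -0.51 to -0.10), which passed the adjusted p but not the fold. The share that passed was 96.7%, against 21.8% of all genes, and the median difference was -1.88, against 0.02 over all genes. In the treated channel alone the median was -1.11 and 26 of 30 passed as lower, against 14.9% of all genes. The DMSO channel went the other way, with a median of 0.86 and 21 members higher on the BaP arrays, against 18.6% of all genes. Centring each channel gave treated and DMSO medians of -0.99 and 1.17, against 0.35 and 0.61 over all genes. The cause of this split between channels was not tested.

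**Figure D3:**
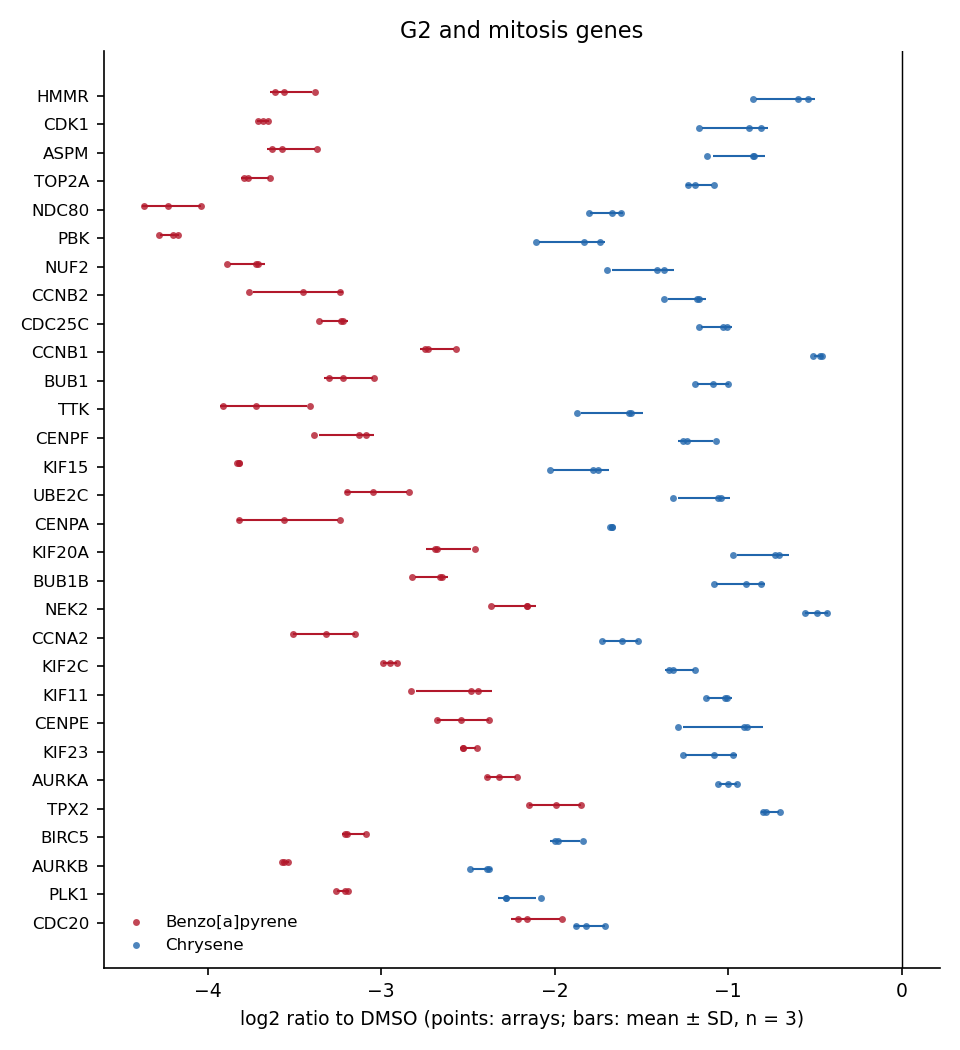
Log2 ratio to DMSO of the 30 G2 and mitosis genes. Points are arrays and bars are mean ± SD (n = 3), red for benzo[a]pyrene and blue for chrysene. The arrays of the compounds do not overlap for any member, and CDC20, at the bottom, has the narrowest gap.

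Promoters of 4 of these genes are shown because they hold TTTGAA, which most members of this list carried and few of the replication genes described next. They are the 100 bases before the annotated start in RefSeq, build GRCh38.p14, all on the plus strand, with TTTGAA and CCAAT in capitals on either strand. HMMR encodes a receptor of hyaluronan that also serves the spindle, CCNB2 is a mitotic cyclin, PLK1 is a mitotic kinase and KIF23 is a kinesin of cell division. The stretches are chr5:163460532-163460631 for HMMR, chr15:59105046-59105145 for CCNB2, chr16:23678789-23678888 for PLK1 and chr15:69414249-69414348 for KIF23.
HMMR: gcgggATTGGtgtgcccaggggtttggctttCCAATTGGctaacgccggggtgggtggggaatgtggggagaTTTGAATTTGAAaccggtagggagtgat
CCNB2: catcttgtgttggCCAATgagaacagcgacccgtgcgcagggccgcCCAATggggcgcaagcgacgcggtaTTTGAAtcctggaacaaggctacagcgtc
PLK1: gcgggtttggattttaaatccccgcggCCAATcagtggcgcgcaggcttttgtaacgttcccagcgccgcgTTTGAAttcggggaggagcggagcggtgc
KIF23: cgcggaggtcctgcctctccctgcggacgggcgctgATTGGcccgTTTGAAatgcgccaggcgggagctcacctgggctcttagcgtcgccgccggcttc

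TTTGAA began 29 bases before the start in CCNB2 and PLK1, 55 in KIF23, and 28 and 22 in HMMR, where the copies adjoin. Over windows of 250 bases before to 50 after each start, 16 of the 24 list members with a RefSeq promoter held TTTGAA on either strand, 66.7%. The share was 18.2% over all 27305 genes, and 1 of 24 among replication genes and 3 of 24 among p53 targets. CCAAT did not separate the lists in this way, at 18 of 24 mitotic and 17 of 24 replication genes against 39.7% of all. A match of letters is a description and not a site.

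HMMR had ratios of -3.56, -3.38 and -3.61 on the BaP arrays and -0.86, -0.60 and -0.54 on the CHR arrays. All BaP values lay below all CHR values, a difference of -2.85 ± 0.10 (SE; limma adjusted p = 6.03e-07). CDK1, the kinase that drives entry into mitosis, had -3.71, -3.68 and -3.65 against -1.17, -0.81 and -0.88. Its difference was -2.72 (adjusted p = 6.03e-07), made of -1.87 in the treated and 0.85 in the DMSO channel. TOP2A, the topoisomerase that untangles chromosomes, had -3.64, -3.79 and -3.77 against -1.23, -1.08 and -1.19, with -1.62 treated and 0.94 DMSO. ASPM (-2.58), NDC80 (-2.51), DLGAP5 (-2.61) and ANLN (-2.50), proteins of the spindle, kinetochore and cleavage furrow, behaved alike, with DMSO channels 0.91 to 1.12 higher. A second ASPM probe gave -0.68. In UBE2C, the conjugating enzyme of the anaphase-promoting complex, the DMSO channels differed by -0.07. The SE of that value was 0.434, larger than in the genes named before it, so it is imprecise. The UBE2C ratios were -3.05, -3.20 and -2.84 against -1.32, -1.06 and -1.04, without overlap. Their difference of -1.89 (limma adjusted p = 3.94e-06) stood beside a treated difference of -1.96 (SE 0.341). KIF2C, a kinesin that depolymerises microtubules, differed by -1.67, with -1.28 treated and 0.38 in DMSO, and PLK1 differed by -1.0 with -0.11 in DMSO. AURKB and BIRC5, a mitotic kinase and its partner survivin, differed less (-1.14 and -1.23) and were lower with chrysene than most members, at ratios of -2.42 and -1.94.

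Genes that copy DNA fell less and separated the compounds less. Of 27 replication genes, 24 fell with benzo[a]pyrene and 13 with chrysene, where 10.3% and 12.9% of all genes fell. Between the compounds 17 were lower and 1 higher, 66.7% against 21.8% of all genes, with a median difference of -0.74. The treated channel had a median of -0.15, or 0.03 with each channel centred, and the DMSO channel 0.42. RRM1, the large subunit of ribonucleotide reductase, had -1.12, -1.08 and -1.15 with benzo[a]pyrene and 0.56, 0.59 and 0.41 with chrysene. Its groups lay on opposite sides of 0, a difference of -1.64 (adjusted p = 1.42e-06), with -0.72 treated and 0.92 DMSO. The partner subunit RRM2 had -2.72, -2.63 and -2.65 against -1.11, -1.24 and -1.28, and here the treated channel held nearly all of it (-1.33 against 0.13). RFC3 and RFC5, of the clamp loader, differed by -1.46 and -1.47 mostly through DMSO (0.94 and 1.09). TK1 (-1.37) and CDC6 (-1.22), the thymidine kinase and a licensing factor, had treated differences of -1.73 and -1.57. The helicase subunits MCM2 to MCM7 fell with both compounds except MCM4, whose CHR ratio of -0.29 did not pass, and no MCM2 to MCM7 difference passed the fold, ranging from -0.46 to 0.19. PCNA, the sliding clamp and also a p53 target, rose with both, to 1.24 and 2.38, with DMSO 0.99 higher on the BaP arrays and the treated channel at -0.15.

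Of 20 repair and checkpoint genes 12 were lower with benzo[a]pyrene and 2 higher, 70% against 21.8% of all genes. The median was -0.70 (treated -0.19, DMSO 0.79). RAD51AP1, a factor of homologous recombination, had ratios of -3.33, -3.37 and -3.48 against -1.41, -1.20 and -1.17, without overlap. Its difference was -2.14 (adjusted p = 8.97e-07), with -1.06 treated and 1.08 DMSO. RAD54L (-1.91) and FANCI (-1.56), of homologous recombination and crosslink repair, were split between channels in the same manner (-0.95 and 0.96, and -0.77 and 0.79). For RAD54L the channel SEs were larger, at 0.18 and 0.229. MND1, a meiotic recombination factor, differed by -2.53, with -1.65 treated. In the E2F and RB list, 7 were lower and 4 higher of 20, 55% against 21.8% of all genes. FOXM1, an activator of mitotic genes, was at -1.09 (-0.59 treated, 0.51 DMSO) and RB1, which holds E2F factors inactive, at -0.85 (-0.36 and 0.49). The FOXM1 channel values are imprecise, with SEs of 0.237 and 0.244. MYBL2 was higher by 0.87, with a treated difference of -0.48.

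The p53 targets, whose shared rise was the reason the compounds were paired, rose in 26 of 30 genes with benzo[a]pyrene and 27 with chrysene, with median ratios of 1.56 and 1.97. Of all genes, 15.7% and 12.1% rose. The p53 response is no independent finding. Between the compounds 8 were lower with benzo[a]pyrene and 3 higher, a share of 36.7% against the 21.8% of all genes, and the median difference was -0.24. None of these 11 had a treated channel at least 1.5-fold apart the same way, and 8 of them had a DMSO channel that far apart against the ratio. Of all 3630 genes that differed, 919 had such a treated channel and 2227 such a DMSO channel. Channel counts depend on how channels were scaled. Over the 30 targets the treated channel had 1 higher and 3 lower (median 0.13, DMSO 0.35), against 15% and 14.9% of all genes. With each channel centred it had 11 higher and 2 lower (median 0.51, DMSO 1.06). All 16652 genes then gave 5156 higher and 2065 lower (median 0.35, DMSO 0.61). FAS, a death receptor, had 1.81, 1.82 and 1.78 with benzo[a]pyrene and 2.93, 3.25 and 3.26 with chrysene. All CHR values were higher, a difference of -1.35 (adjusted p = 1e-05), of which -0.36 was treated and 0.99 DMSO. SPATA18, a mitochondrial quality factor, differed by -1.17 (-0.30 treated, 0.86 DMSO), but by -0.39 and -0.41 on its other probes. CCNG1, a cyclin, differed by -1.03 (-0.54 and 0.50). SESN2, which restrains mTORC1 under stress, was higher by 1.03, with channel differences of -0.66 (treated) and -1.70 (DMSO). BAX, a pore-forming killer protein, was higher by 0.89, with 0.56 treated and -0.34 DMSO.

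In CDKN1A, FDXR and GDF15 the difference could not be read, because spots were saturated. CDKN1A had 4.37, 4.41 and 4.34 with benzo[a]pyrene and 4.60, 4.21 and 4.15 with chrysene, but its Cy5 spots were saturated on all 3 BaP arrays and 2 CHR arrays. Its rise with benzo[a]pyrene was at least 20.7-fold, and those of FDXR and GDF15 at least 9.55-fold and 5.75-fold. DDB2, a damage sensor of nucleotide excision repair and unsaturated on all arrays, had 2.45, 2.58 and 2.49 against 2.45, 2.38 and 2.40. Its groups touched, and the difference was 0.09 (interval -0.06 to 0.25).

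The targets of AHR did not move as a group between the compounds, yet single genes parted both ways. Of 17 listed, 16 were on the platform and tested, and 4 were higher and 3 lower with benzo[a]pyrene. That is 43.8% against 21.8% of all genes, and the median difference was -0.06. CYP1A1, the main enzyme of hydrocarbon oxidation, had 5.83, 5.66 and 5.60 with benzo[a]pyrene and 6.32, 5.51 and 5.59 with chrysene. The groups overlapped. Its Cy5 spot was saturated on 1 BaP and 3 CHR arrays, so the rise with chrysene was at least 55.9-fold and the difference cannot be read. AHRR, the AHR repressor, differed by -0.21 (interval -0.42 to 0.00) and TIPARP, another feedback inhibitor, by 0.00 (interval -0.26 to 0.26). CYP1A2 differed by -0.32, under the fold. None of these passed. A channel was not above background on some arrays for CYP1A2 (3 arrays with both above), UGT1A6 (4), CYP1B1 and TIPARP (5 each).

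Higher with benzo[a]pyrene were CYP1B1, CYP2S1, UGT1A6 and SLC7A5. CYP1B1, an extrahepatic hydrocarbon oxidase, had 2.43, 2.61 and 2.59 against 1.43, 1.74 and 1.58, without overlap. The difference was 0.96 (adjusted p = 4.99e-05), with 1.33 in the treated and 0.37 in the DMSO channel. CYP2S1, another P450, had 2.37, 2.63 and 2.41 against 1.31, 1.49 and 1.48, a difference of 1.04 with 1.38 treated. UGT1A6, which conjugates phenols with glucuronic acid and shares exons with other UGT1A genes, differed by 0.84 (0.80 treated, -0.03 DMSO). SLC7A5, an amino acid transporter, differed by 0.98, of which 0.40 was treated. Lower with benzo[a]pyrene were ALDH3A1, NQO1 and CCNG2. ALDH3A1, an aldehyde dehydrogenase, had 1.73, 1.56 and 1.59 with benzo[a]pyrene and 3.64, 3.08 and 3.29 with chrysene. Every CHR array was higher, by a mean of 3.27-fold (difference -1.71, adjusted p = 1.32e-05), and the DMSO channels differed by only 0.01. NQO1, a quinone reductase, had -0.43, -0.10 and -0.48 against 0.77, 1.07 and 0.99, so it rose with chrysene and not with benzo[a]pyrene. Its difference was -1.28, with -0.90 treated and 0.38 DMSO.

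**Figure D4:**
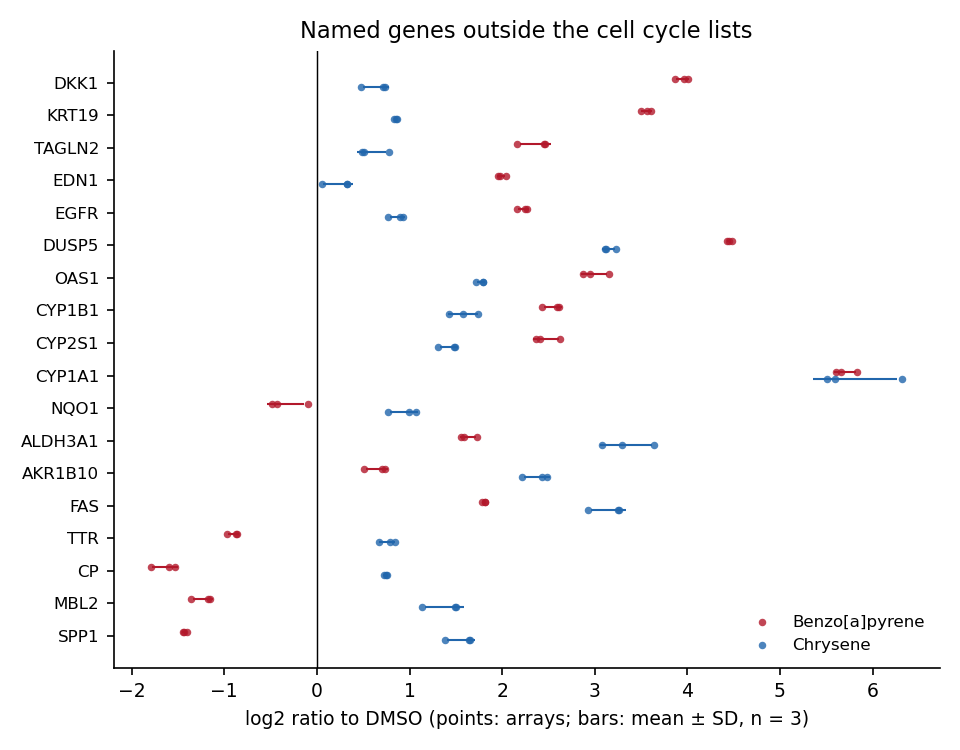
Log2 ratio to DMSO of 18 named genes outside the cell cycle lists. Points are arrays and bars are mean ± SD (n = 3), red for benzo[a]pyrene and blue for chrysene. Genes from DKK1 to CYP2S1 are higher with benzo[a]pyrene, CYP1A1 overlaps, and genes from NQO1 to SPP1 are lower.

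NQO1 is also a target of NRF2, the regulator of antioxidant enzymes, and 8 of 22 NRF2 targets were lower with benzo[a]pyrene and 1 was higher, 40.9% against 21.8% of all genes (7.19% lower and 14.6% higher). The median difference was -0.43 (treated -0.06, or 0.48 with each channel centred, and DMSO 0.45). AKR1B10, an aldo-keto reductase, had 0.74, 0.70 and 0.51 against 2.22, 2.48 and 2.43, without overlap. The difference was -1.73 (adjusted p = 3.2e-06), mostly treated (-1.20). HMOX1, which degrades haem, had -0.30, -0.14 and -0.27 against 0.83, 0.67 and 0.62, with -0.70 of its -0.94 in the treated channel. Among phase II enzymes 7 of 21 were lower with benzo[a]pyrene, 33.3% against 7.19% of all genes, led by glutathione transferases that fell with both compounds. The median was -0.24 (treated -0.37, DMSO 0.10, or 0.02 and 0.94 with each channel centred). GSTA2 had -3.83, -3.84 and -3.75 against -1.81, -1.52 and -1.53, a difference of -2.19, with -1.59 treated. GSTA1, at -1.94 (-1.22 treated, 0.72 DMSO), is nearly identical in sequence, so signal may be shared. MGST1 and GSTA4 differed by -1.04 and -0.99, more in DMSO (0.58 and 0.62) than in the treated channel.

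Metallothioneins, small proteins that bind zinc and copper, were lower with benzo[a]pyrene in 8 of 9 list members, against 7.19% of all genes. Their median was -0.99, and the exception was the zinc exporter SLC30A1. Of the 9 members, 6 were saturated on at least 1 array, MT1A, MT1H, MT1X and MT2A on all 6, so their treated channels lay at the scanner's ceiling and the median is not read as a difference. The DMSO channels had a median of 0.77, with 8 of 9 higher on the BaP arrays. On those arrays the mean log2 DMSO signals of MT1A, MT1H and MT1X were 15.67, 15.71 and 15.70. Their treated signals were 15.84, 15.82 and 15.77, so their DMSO differences may be limited by the ceiling too. MT1M had -1.04, -1.25 and -1.10 against -0.19, -0.06 and -0.01, with an imprecise treated difference of -0.18 (SE 0.218). MT1F had -3.09, -3.35 and -3.23 against -2.44, -2.11 and -2.00, with -0.39 treated and 0.65 DMSO. Both are unsaturated. MT2A rose at least 2.7-fold with benzo[a]pyrene and 6.0-fold with chrysene. Members are close in sequence and probes may share signal.

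The differences that lay in the treated channel and ran upward were led by DKK1, a secreted inhibitor of Wnt signalling. It had ratios of 3.96, 4.01 and 3.87 with benzo[a]pyrene and 0.48, 0.71 and 0.73 with chrysene. The groups were far apart, 9.9-fold (difference 3.31 ± 0.088 SE; limma adjusted p = 3.62e-07), with 2.98 in the treated and -0.33 in the DMSO channel. KRT19, a keratin of bile duct cells, had 3.50, 3.56 and 3.61 against 0.83, 0.87 and 0.85. It rose with both, 6.53-fold more with benzo[a]pyrene, with 2.19 treated and -0.52 DMSO. EDN1, the vasoconstrictor endothelin, had 1.96, 1.98 and 2.04 against 0.05, 0.32 and 0.33, and TAGLN2, an actin-binding protein, had 2.16, 2.45 and 2.46 against 0.78, 0.49 and 0.51. Neither overlapped, both differed by 1.76, and their DMSO channels differed by 0.08 and 0.07. SPINT1, an inhibitor of surface proteases, rose with both (3.36 and 1.69), with channel differences of 1.21 and -0.45. KATNIP, which binds the microtubule-severing katanin, was near 0 with benzo[a]pyrene (0.24) and down with chrysene (-1.40), with 1.35 treated and -0.30 DMSO, but its other probe gave a difference of 0.37 against 1.65. MYOF and VNN2, a membrane repair protein and a pantetheinase, differed by 3.30 and 2.84, with DMSO differences of -1.93 and -1.96, and other MYOF probes gave 1.99 and 1.32. Without CHR array 1, which lay nearer the BaP arrays, more genes passed (2718 higher and 1452 lower).

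Of 21 genes of MAPK feedback and the EGF family, 6 were higher with benzo[a]pyrene (28.6% against 14.6% of all genes higher and 21.8% either way, median 0.26). Against DMSO, 13 rose with benzo[a]pyrene and 9 with chrysene, where 15.7% and 12.1% of all genes rose. EGFR, the EGF receptor, had 2.16, 2.25 and 2.27 against 0.77, 0.93 and 0.90, without overlap, a difference of 1.36 (adjusted p = 3.2e-06) with 1.57 treated. DUSP5, a phosphatase of ERK induced by that pathway, had 4.43, 4.45 and 4.48 against 3.11, 3.12 and 3.23, a difference of 1.30 with 1.62 treated. SPRY4, a feedback inhibitor, differed by 0.75 (0.72 treated). FOSL1, a transcription factor of the AP-1 family, rose as much with either (2.46 and 2.47; difference -0.01, interval -0.19 to 0.17). JUN was higher by 0.67, with a treated difference of -0.91. In the TGF-beta and matrix list, 11 of 24 were higher and 2 lower, 54.2% against 21.8% (median 0.36, treated 0.19, DMSO -0.01). MMP1, a collagenase, PLAUR, the urokinase receptor, and INHBB, an activin subunit, differed by 2.14, 1.82 and 1.49, with treated differences of 1.79, 1.39 and 2.15. These 3 were chosen after their values were seen, and a channel was not above background on 1 or 2 of their arrays. TIMP2, a protease inhibitor, differed by 1.19 (0.40 treated), but its other probe gave -0.04. TGFB1 itself was higher by 1.24 as a ratio while both channels were lower on the BaP arrays (treated -2.06, DMSO -3.29).

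Among growth factor axes of IGF and FGF, 8 of 17 were higher and 1 lower, 52.9% against 21.8%, while the treated channel had 3 higher and 4 lower (median -0.28, DMSO -0.43). Centring each channel gave 5 higher and 3 lower in the treated channel (median 0.13, DMSO -0.01), where all 16652 genes gave 5156 and 2065. INSR, the insulin receptor, differed by 1.21 (0.93 treated) and IGFBP4, a carrier of IGF, by 1.09 (0.96 treated). FGFR2 differed by -0.96 on the probe used, but 2 other probes gave 0.12 and 0.18. OAS1, an interferon-induced sensor of RNA, had 2.95, 2.87 and 3.15 against 1.72, 1.79 and 1.79, without overlap, and a treated difference of 1.42. Among 20 interferon genes 4 were higher and 1 lower, a share of 25% near the 21.8% of all genes. IL11, a cytokine, differed by 0.65 (1.23 treated), and CXCL3 and CCL20, chemokines, by -0.96 (-0.83 treated) and -0.71 (-0.15 treated).

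Histone genes were higher with benzo[a]pyrene in 7 of 15, 46.7% against 14.6% of all genes (median 0.51, treated 0.56, DMSO 0.00). Against DMSO, 13 rose with benzo[a]pyrene and 7 with chrysene, where 15.7% and 12.1% of all genes rose. H2BC5 had 1.45, 1.65 and 1.75 against 0.82, 0.93 and 0.94, a difference of 0.72, and H2BC21 differed by 0.66, both with DMSO channels under 1.5-fold apart. H2AJ differed by 0.91, but its treated channel by -0.93, and its other probes gave 0.56 and -0.57. Histone genes are similar in sequence, and their signals may be shared.

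Of the 8 genes that fell with benzo[a]pyrene and rose with chrysene, SPP1, MBL2, CP and CENPW had the largest differences among those well measured. SPP1, the secreted phosphoprotein osteopontin, had -1.40, -1.43 and -1.45 with benzo[a]pyrene and 1.38, 1.64 and 1.65 with chrysene. The groups lay on opposite sides of 0, a difference of -2.98 ± 0.087 (SE; adjusted p = 3.74e-07), with -1.97 treated and 1.02 DMSO. MBL2, the mannose-binding lectin of complement made by liver, had -1.15, -1.36 and -1.18 against 1.14, 1.49 and 1.5. Its difference of -2.61 was -1.20 treated and 1.40 DMSO. CP, the plasma copper oxidase ceruloplasmin, had -1.79, -1.60 and -1.53 against 0.72, 0.75 and 0.76, with -1.73 of its -2.38 treated. CENPW, a centromere protein, had -1.11, -1.31 and -1.17 against 0.53, 0.72 and 0.66, a difference of -1.84 (-1.07 treated, 0.77 DMSO).

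The 58 genes that rose with benzo[a]pyrene and fell with chrysene were led among the well measured by ATAD3B, BRF1, ISM2 and DRD5. ATAD3B, a mitochondrial ATPase, had 1.16, 1.35 and 1.06 against -0.97, -1.54 and -1.58, but its channel differences were -0.77 (treated) and -3.32 (DMSO). Its other probe gave a difference of 1.27 against 2.55. BRF1, a factor of RNA polymerase III, had 1.73, 1.37 and 1.52 against -0.70, -0.86 and -1.11, with 0.67 treated and -1.76 DMSO. Its other probes gave differences of 0.66 and 0.84 against 2.43. ISM2, a secreted protein, had 0.86, 0.93 and 0.95 against -1.16, -1.40 and -1.44, with 0.89 treated. DRD5, a dopamine receptor, had 1.45, 1.48 and 1.52 against -0.75, -0.59 and -0.66, with 3.28 treated and 1.13 DMSO. All 4 had groups on opposite sides of 0. Of the 66 genes with opposite calls, 17 had a treated channel at least 1.5-fold apart the same way, a share near that of all genes that differed (919 of 3630).

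Liver proteins parted for a few members. Of 24 secreted hepatocyte proteins tested 16 fell with benzo[a]pyrene and 13 with chrysene, where 10.3% and 12.9% of all genes fell. Between the compounds 6 were lower and 1 higher with benzo[a]pyrene, 29.2% against 21.8% of all genes (median -0.28, treated -0.15, DMSO 0.23). Centring each channel gave treated and DMSO medians of 0.45 and 1.22. In this list 13 members were saturated on at least 1 array. TTR, the carrier of thyroid hormone and retinol, had -0.87, -0.86 and -0.97 against 0.67, 0.79 and 0.84, on opposite sides of 0, with -1.25 of its -1.67 treated. AFP, the fetal albumin, had -1.76, -1.61 and -1.84 against -0.85, -0.32 and -0.44, but nearly all of its -1.20 was DMSO (1.00). HAMP, the iron hormone hepcidin, differed by -1.14, of which -0.07 was treated. FABP1, a fatty acid carrier, fell to -2.47 and -1.79, with -0.71 treated and -0.03 DMSO. CYP3A4, a P450 of drug metabolism, differed by -0.67 (0.24 against 0.91), and its treated difference was -1.14. Among hepatocyte transcription factors 5 of 16 were higher and 2 lower, 43.8% against 21.8%. Their treated channel had 2 each way, or 6 higher and 2 lower with each channel centred, where all 16652 genes gave 5156 and 2065. FOXA3 differed by 0.73 (0.60 treated) and FOXA1 by -0.78 (-0.41 treated), whereas CEBPA, at 1.16, had a treated difference of -1.71.

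In lipid, sugar and lysosome genes the ratio and the treated channel often disagreed, to an extent that depended on how the channels were scaled. FASN, the fatty acid synthase, had -0.25, -0.12 and -0.16 against -1.06, -2.06 and -2.15, a difference of 1.58 without overlap. Its channel differences were -2.91 (treated) and -4.50 (DMSO). CTSD, a lysosomal protease (1.90), IRF7, an interferon regulator (1.71), PFKL, of glycolysis (1.30), and POR, the reductase that feeds P450s (1.28), had DMSO differences between -4.43 and -3.58 and treated differences between -2.64 and -2.28. The other IRF7 probe gave 0.14. In these genes the ratio was higher with benzo[a]pyrene while both channels were lower on the BaP arrays, and the cause was not tested. GPAM and MSMO1, of triglyceride and sterol synthesis, differed by -1.01 and -0.91 with treated differences of -0.57 and -0.68, and a second GPAM probe gave -0.30. SCD, a fatty acid desaturase, fell to -2.27 and -1.48, with -0.17 treated. Glycolysis genes were higher in 8 of 19 (42.1%) and lysosome genes in 6 of 17 (35.3%), against 14.6% of all genes. In the treated channel alone, 4 glycolysis genes were higher and 3 lower, and 3 lysosome genes were higher and 3 lower. With each channel centred, these counts became 10 and 2 for glycolysis and 11 and 3 for lysosome genes. That centring also moved the treated counts of all 16652 genes, from 2496 higher and 2480 lower to 5156 and 2065. Cholesterol genes were higher in 4 of 23 and lower in 3, 30.4% against 21.8% of all. Their treated channel had 7 lower and 0 higher at that threshold, or 4 and 1 with each channel centred. Respiratory chain genes were higher in 3 of 23 and lower in 3, a share of 26.1% near that of all genes.

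**Figure D5:**
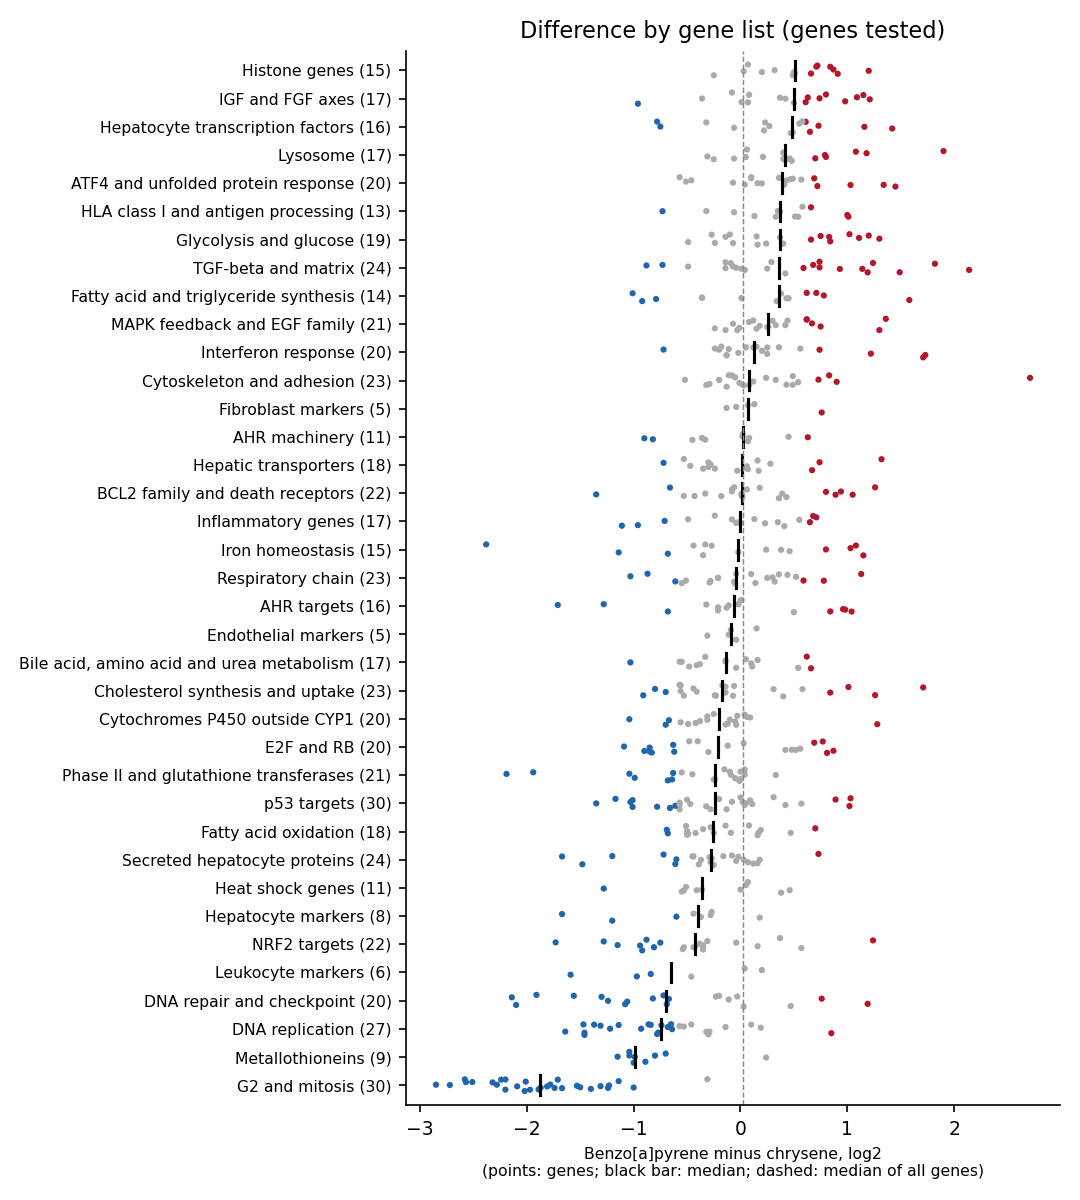
Benzo[a]pyrene minus chrysene, log2, for members of each gene list. Points are genes, red where higher, blue where lower and grey where not called, black bars are medians and the dashed line is the median of all genes (0.02). The lists run from G2 and mitosis (median -1.88) at the bottom to histone genes (0.51) at the top.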

How the data were processed

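Deposited scanner files give, per the file headers, spot and background intensity of either dye, without normalisation, and the percent of saturated pixels. Log2 ratios were deposited too, whose normalisation is not given in the sources used here. The column of CHR array 2 could not be tied to spots, so BaP arrays 1 to 3 and CHR arrays 1 and 3 served as an alternative.

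Values were computed with R 4.3.3 and limma 3.58.1, read and drawn with Python 3.11.15, pandas 2.3.3, numpy 2.4.6 and matplotlib 3.10.9. Control spots and flags of -75 or lower were left out. Background was corrected with normexp (offset 50), and arrays were normalised by loess. Of 41000 probes 26494 were named through RefSeq accession or symbol. Tested probes exceeded background by 2 of its SDs in either dye on 2 or more of the 3 arrays of BaP or CHR, and the brightest probe stood for a gene. Channels were scaled by Aquantile before they were compared. A spot with at least 10% saturated pixels counted as saturated. Bounds take the saturated mean against the DMSO mean.

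One limma model with a mean per compound was fitted to the 6 arrays, 2-sided, adjusted by Benjamini and Hochberg over 16652 genes for the 1 pair. It was tested on simulated ratios. Ratios of arrays with the same number deviated from their compound means almost without correlation (-0.00121, 0.0466 and -0.0192), and the model did not pair arrays. Whether such arrays shared a culture or DMSO RNA cannot be told from this, since a ratio removes effects common to both dyes. The number of arrays limits the precision.

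The members and lists were chosen with earlier results of these data known. Named genes were those called, above background in both channels and unsaturated on all 6 arrays, with groups that do not overlap. They were the 10 highest and 10 lowest, the 6 and 6 with DMSO channels under 1.5-fold apart, the 4 and 4 with opposite calls, up to 4 members of each list, and all AHR targets. Some saturated list members are named with bounds. List members outside this rule are given as examples chosen after their values were seen. Some genes that the rule would name are not reported here.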

Additional observations from a re-analysis of the deposited data

Results flagged for a closer look

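The 8 genes below moved in opposite directions with the compounds on every array, which singled them out. They were chosen as the 4 and 4 largest differences among genes with opposite calls, so their differences are a description and were not tested independently. Higher with benzo[a]pyrene were ATAD3B (difference 2.55), BRF1 (2.43), ISM2 (2.25) and DRD5 (2.15). Lower were SPP1 (-2.98), MBL2 (-2.61), CP (-2.38) and CENPW (-1.84). In the treated channel alone 7 of the 8 kept their direction, and ATAD3B did not (-0.77). Other probes gave 1.27 for ATAD3B, and 0.66 and 0.84 for BRF1.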

How the results depend on the processing

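A 2-fold threshold left 807 higher and 297 lower genes between the compounds, 1115 and 753 with benzo[a]pyrene against DMSO, 795 and 769 with chrysene, 419 and 2078 in the DMSO channel, 601 and 1423 in the treated channel, and 351 whose treated channel differed the same way. Taken alone, the treated channel gave 2480 lower genes. With each channel centred on its median, 8421 genes were higher in the DMSO channel and 5156 in the treated channel, the latter an alternative chosen after seeing the data. That centring left 1042 of the 3630 genes with DMSO channels under 1.5-fold apart, against 1270.

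Leaving out each array in turn gave 2293 to 2718 higher and 1106 to 1452 lower genes between the compounds, 2572 to 2673 and 1720 to 1742 with benzo[a]pyrene, 1961 to 2138 and 2070 to 2401 with chrysene, 2847 to 3603 and 2977 to 3302 in the DMSO channel, 2359 to 2866 and 2367 to 2659 in the treated channel, and 852 to 1012 whose treated channel differed the same way. A replicate block, by array number, gave 2436 higher and 1201 lower. Median centring in place of loess gave 2860 and 884, and the authors' deposited values 2349 and 1347.

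Of 146 named genes, these differed between the compounds and had the other sign in the treated channel alone, with the values ACTN1 -0.71, ATAD3B -0.77, BCL2L1 -0.77, CDC42EP1 -0.32, CEBPA -1.71, COL4A1 -0.05, CTSD -2.54, CYP27A1 -0.48, E2F2 0.04, F2 -0.10, FASN -2.91, FGFR4 -1.50, H2AJ -0.93, HLA-B -0.48, HLA-F -0.19, ID3 -0.26, IRF7 -2.64, JUN -0.91, KRT18 -0.02, LYZ 0.11, MVK -1.30, MYBL2 -0.48, NDUFV1 -1.37, NR1H4 0.27, PCK1 -0.08, PDGFRB -0.40, PDIA4 -1.48, PFKL -2.28, PFKP -0.22, POR -2.43, SDF2L1 -0.11, SESN2 -0.66, SREBF2 -1.19 and TGFB1 -2.06. By construction the DMSO channels differed by at least as much as the treated channels in these. TIPARP, with a ratio difference of 0.00, passed in the treated channel at 0.69. Genes that passed in neither and had the other sign there were IGFBP1 (-0.45), SERPINB2 (0.48), AHRR (0.25), CYP1A1 (0.24), CYP1A2 (0.01) and XDH (-0.03). SERPINB2 turned to 0.96 when its probes were averaged, since its other probe gave 2.14. Of 71 other probes of named genes, 62 had the sign of the probe used. Saturated spots limit CYP1A1, CDKN1A and 6 of 9 metallothionein list members.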
